A study of Mus musculus with 24 samples.

Results

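Insulin receptor signalling and its FOXO branch were followed in mouse heart through 9 genes, taken by symbol from the deposited count files, where 9 of 9 were found among 24421 genes and 9 passed the filter on low counts that left 15804 genes for testing. They were the insulin receptor gene Insr, the docking proteins Irs1 and Irs2, the transcription factors Foxo1 and Foxo3, the muscle ubiquitin ligases Fbxo32 (atrogin-1) and Trim63 (MuRF1), the cell cycle inhibitor Cdkn1a (p21) and the transcription factor Klf15. In heart muscle, insulin acts through its receptor, IRS1 and IRS2 to switch on PI3-kinase and AKT, and AKT phosphorylates FOXO1 and FOXO3 and keeps them out of the nucleus. When insulin signalling is low, FOXO factors in the nucleus raise Fbxo32 and Trim63, whose proteins mark muscle proteins for the proteasome, and they also raise Irs2 and Insr. Klf15 is a target of the glucocorticoid receptor that controls amino acid and lipid use in muscle, and Cdkn1a is known as a target of p53 and of FOXO factors.

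The data were 24 polyA RNA libraries, each from a whole-heart sample labelled as from a male mouse, 14 weeks old, fed chow and of mixed strain, mostly C57BL/6N with some 129. Acadl and Acadvl encode the long-chain and very long-chain acyl-CoA dehydrogenases of mitochondrial fatty acid oxidation. The label Acadl wt / Acadvl wt, called wild type here, was on 4 libraries. A further 4 were Acadl Het / Acadvl wt, 3 were Acadl Het / Acadvl Het and 4 were Acadl Het / Acadvl KO. The Acadl KO label was on 4 libraries that were Acadvl wt (Acadl KO / Acadvl wt) and on 5 that were Acadvl Het (Acadl KO / Acadvl Het). Every Acadvl KO heart was therefore also Acadl Het, and the labels do not say how either allele was made. RNA came from 2 isolation batches, of 9 and 15 libraries, and replicate numbers only name libraries. Sample titles open with a number that 21 of the 24 libraries share with another library, and its meaning is not given. The labels do not state whether each library is its own animal, and p-values then measure only how far these samples spread.

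Libraries held 34320838 to 51743114 counts. The summed level of 12 ventricular cardiomyocyte markers was 94313 to 123544 CPM (counts scaled to a common library size) over the libraries, so the defining markers of the labelled tissue were present. Acadvl was at 495 to 734 CPM in Acadvl KO hearts and at 1550 to 1743 CPM in Acadl Het / Acadvl wt hearts. Acadl went against its label: it was at 1697 to 2100 CPM in Acadl KO / Acadvl wt and at 1324 to 1412 CPM in wild type, so these libraries are called "labelled Acadl KO" throughout. The liver transcript Alb was above 10 CPM in 6 libraries, namely Acadl Het / Acadvl Het replicates 1 to 3, Acadl Het / Acadvl KO replicate 2 and labelled Acadl KO / Acadvl wt replicates 2 and 3. Values without these 6 are given beside the results they touch. Reads of the ribosomal RNA gene Rn45s made up 17.3% of the total in Acadl Het / Acadvl Het replicate 1 and 0.232% to 0.558% elsewhere.

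RefSeq promoter windows (GRCm38.p6, the mm10 build of the count files) were found for 7 of the 9 genes, with 2 starts for Cdkn1a, and the 250 bases before each start were searched on both strands for 5 motifs. The 3 windows that held a motif and belong to the genes with the largest differences below are shown 5′ to 3′ on the gene's strand, with the matched letters in capitals. They are Irs2 (chr8:11008930-11009179, minus strand), Trim63 (chr4:134314870-134315119, plus strand) and the upstream start of Cdkn1a (chr17:29090729-29090978, plus strand).
Irs2: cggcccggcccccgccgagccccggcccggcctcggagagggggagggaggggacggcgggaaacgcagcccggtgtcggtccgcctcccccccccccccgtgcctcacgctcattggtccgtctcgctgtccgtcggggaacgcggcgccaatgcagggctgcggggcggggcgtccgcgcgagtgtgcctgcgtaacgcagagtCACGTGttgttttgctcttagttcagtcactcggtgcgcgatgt
Trim63: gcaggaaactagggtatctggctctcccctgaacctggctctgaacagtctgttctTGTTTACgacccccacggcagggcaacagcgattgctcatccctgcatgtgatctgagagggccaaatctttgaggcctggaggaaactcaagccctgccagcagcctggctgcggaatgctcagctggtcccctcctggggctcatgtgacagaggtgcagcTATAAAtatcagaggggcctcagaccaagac
Cdkn1a: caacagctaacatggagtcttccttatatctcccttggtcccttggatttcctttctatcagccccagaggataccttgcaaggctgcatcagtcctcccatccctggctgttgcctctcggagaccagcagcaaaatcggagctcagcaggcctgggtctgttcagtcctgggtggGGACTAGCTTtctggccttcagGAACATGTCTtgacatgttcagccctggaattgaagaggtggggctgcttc
The FOXO site was searched for only as GTAAACA, so a window without a match may hold another form of it. GTAAACA was in 1 of the 8 windows, that of Trim63, where it lies on the opposite strand and begins 194 bases before the start. It was in 3.17% of all 32851 windows. The E-box CACGTG was in 3 of the 8 windows, those of Irs1, Irs2 and Klf15, and in 6.02% of all windows. In Irs2 it begins 44 bases before the start. The p53 half-site matched the upstream window of Cdkn1a at 2 positions, beginning 73 and 51 bases before the start, and 7.13% of all windows. The TATA box TATAAA was found in Trim63 alone among the 8, 31 bases before the start, and in 12.4% of all windows. The ATF4 response element TGATGNAA was in 0 of the 8 and in 3.45% of all. No 2 matches in the printed windows overlap, and a match is a run of letters, not a bound site.

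Per exon length, the ligases and Cdkn1a were the most abundant of the 9 and the FOXO and IRS genes the least. The mean over 24 libraries was 232 RPKM (CPM per kilobase of exon) for Trim63, 155 RPKM for Cdkn1a, 69.1 RPKM for Fbxo32, 53.2 RPKM for Klf15 and 42.1 RPKM for Insr. Foxo3 stood at 18.1 RPKM, Irs2 at 17.3 RPKM, Irs1 at 7.88 RPKM and Foxo1 at 7.60 RPKM. Trim63 was thus at percentile 98.0 of the genes tested and Foxo1 at percentile 59.2. Irs2 varied most, with its highest library at 14.0 times its lowest, followed by Cdkn1a at 7.82 times and Trim63 at 4.05 times. Foxo1 varied least, at 1.73 times. The fewest reads behind any of these levels were 720, for Irs2 in 1 library, so counting error was small beside the differences between libraries. All 9 genes are plotted by genotype, library and batch.

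**Figure D1:**
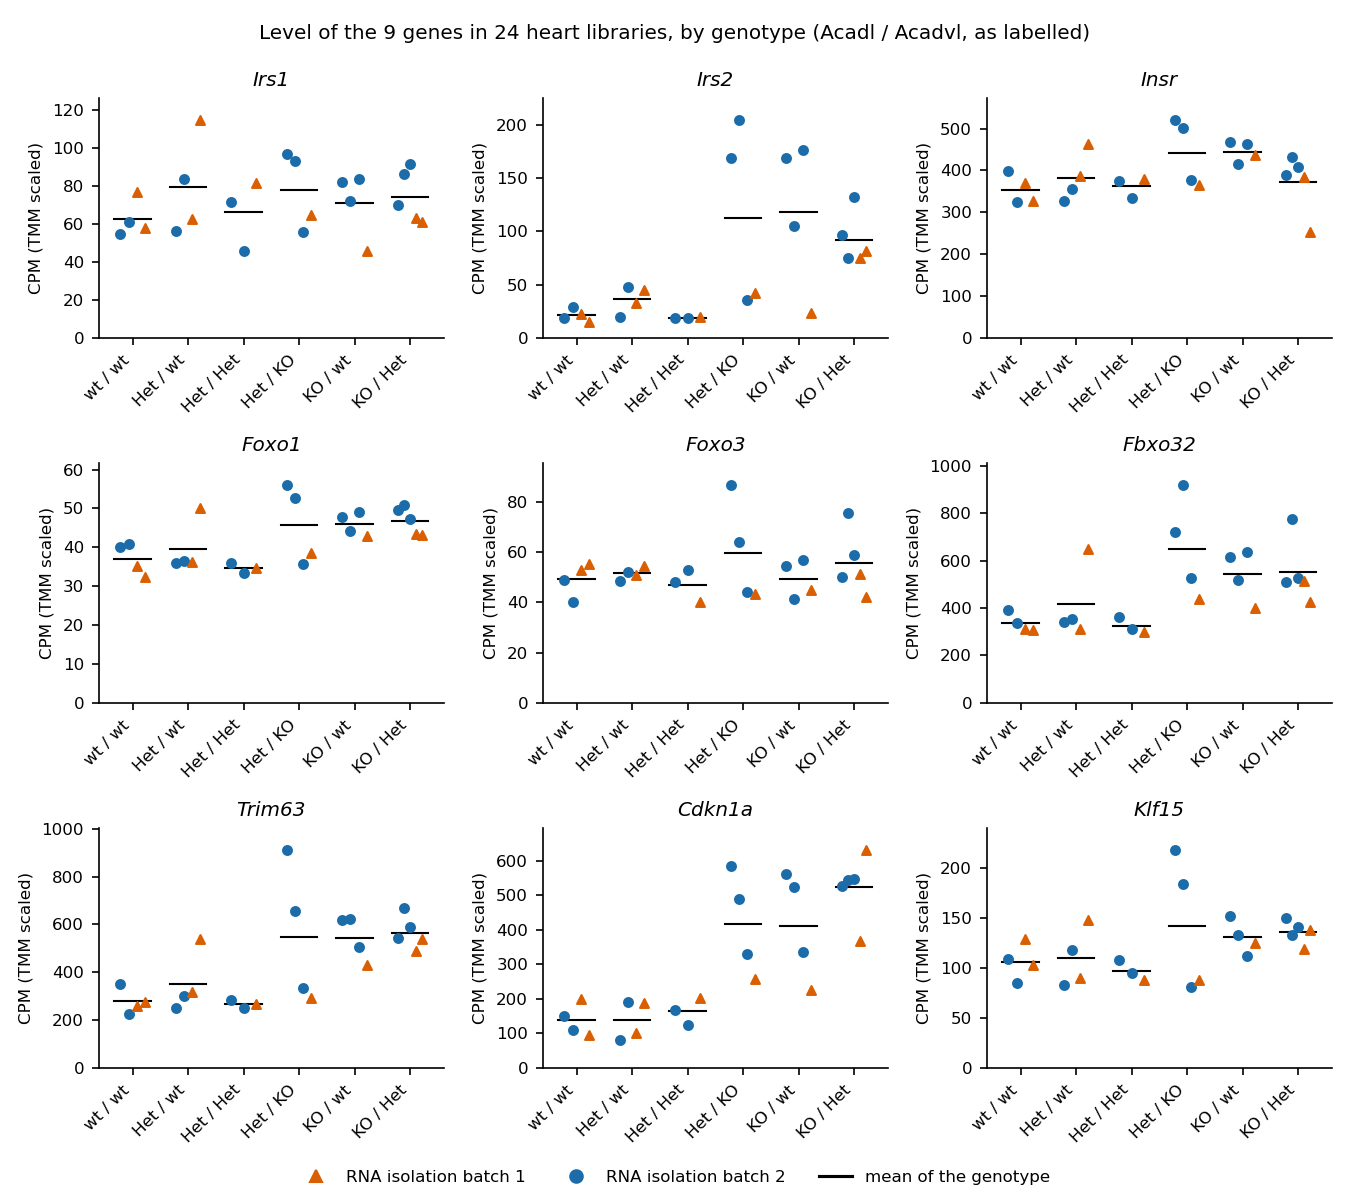
CPM (y axis, linear, from 0) of each of the 9 genes in 24 libraries by genotype, written as Acadl / Acadvl (x axis), with a symbol per library marked by RNA isolation batch and a line at the genotype mean. Irs2 and Cdkn1a are low in the 3 genotypes without a KO label (Irs2 at 14.7 to 47.5 CPM, Cdkn1a at 80.7 to 202 CPM), and within Acadl Het / Acadvl KO replicates 1 and 2 are above replicates 3 and 4 in all 9 panels.

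The first question was what differed between labelled Acadl KO and wild type hearts, both with Acadvl wt. In edgeR's quasi-likelihood test over all genes, 4 of the 9 genes rose (Irs2, Cdkn1a, Trim63 and Fbxo32) and 0 fell, with the threshold for a call at an adjusted p of 0.05. Among all genes tested 37.2% were called, 19.6% higher and 17.6% lower. The median log2 change of the 9 was 0.31, against -0.0171 over all genes tested. The 2 KO labels were also compared with their other controls, and the comparisons share libraries, so their values are set side by side and not counted as separate support.

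At the receptor step, Insr was at 399, 324, 369 and 326 CPM in wild type and at 467, 415, 463 and 436 CPM in labelled Acadl KO / Acadvl wt. The 4 labelled Acadl KO libraries were all above the 4 wild type libraries, but the fitted difference did not pass (log2 change 0.31, SE 0.14, edgeR adjusted p = 0.0913). In labelled Acadl KO / Acadvl Het it was at 389, 432, 407, 385 and 253 CPM, which overlapped wild type. Against Acadl Het, averaged over Acadvl wt and Acadvl Het, the log2 change of Insr was 0.12 (SE 0.1, edgeR adjusted p = 0.348).

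Irs2, which carries the insulin signal from the receptor, had the largest change of the 9. In wild type it was at 18.4, 28.8, 22.2 and 14.7 CPM, in Acadl Het / Acadvl wt at 19.9, 47.5, 32.4 and 44.7 CPM, and in Acadl Het / Acadvl Het at 18.2, 18.8 and 19.4 CPM. In labelled Acadl KO / Acadvl wt it was at 169, 105, 177 and 23.0 CPM and in labelled Acadl KO / Acadvl Het at 96.6, 75.3, 132, 74.8 and 81.7 CPM. Of the 9 labelled Acadl KO libraries, 8 lay above every library of the other 3 genotypes just given, and the exception was Acadl KO / Acadvl wt replicate 4, at a wild type level. Irs2 rose over wild type by 2.24 in log2 (SE 0.53, with an edgeR adjusted p = 0.00297) and over Acadl Het by 1.85 (SE 0.38, edgeR adjusted p = 0.000512).

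The size of the Irs2 change differed between the RNA isolation batches. Within batch 1, which holds the low library as its only labelled Acadl KO / Acadvl wt library, the log2 change over wild type was 0.32, and within batch 2 it was 2.68. Over Acadl Het the same values were 0.63 and 2.31. Without the 6 libraries with Alb above 10 CPM, the log2 change of Irs2 was 1.96 over wild type and 1.13 over Acadl Het, the latter in Acadvl wt alone. The first was still called (edgeR adjusted p = 0.0257) and the second was not (edgeR adjusted p = 0.192). Irs2 shares 162 exon bases with the antisense gene 9530052E02Rik, and counting ignored strand, so reads there count for both. That gene had 16 to 404 counts in a library, against at least 720 for Irs2.

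Irs1, the other docking protein, did not follow Irs2. It was at 54.6 to 76.9 CPM in wild type and at 45.6 to 83.6 CPM in labelled Acadl KO / Acadvl wt, and the ranges of all 6 genotypes overlapped. Its log2 change was 0.15 over wild type (SE 0.25, edgeR adjusted p = 0.666) and -0.01 over Acadl Het (SE 0.18). The difference between the changes of Irs2 and Irs1 was not itself tested.

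Of the FOXO factors, Foxo1 was at 40.1, 40.8, 35.2 and 32.3 CPM in wild type, at 47.9, 44.1, 49.0 and 43.0 CPM in labelled Acadl KO / Acadvl wt and at 49.7, 50.9, 47.3, 43.4 and 43.1 CPM in labelled Acadl KO / Acadvl Het. All 9 labelled Acadl KO libraries were above all 4 wild type libraries. Of the 7 Acadl Het libraries with Acadvl wt or Acadvl Het, 6 were at 33.4 to 36.4 CPM, and Acadl Het / Acadvl wt replicate 4 was at 50.0 CPM. Foxo1 rose over Acadl Het by 0.31 in log2 (SE 0.09, with an edgeR adjusted p = 0.00616), and over wild type its log2 change of 0.29 was not called (SE 0.12, edgeR adjusted p = 0.0748). Without the 6 libraries with Alb above 10 CPM the call over Acadl Het was lost, at 0.19 in Acadvl wt alone (edgeR adjusted p = 0.428). Foxo3 was at 40.3 to 55.3 CPM in wild type and 41.5 to 56.8 CPM in labelled Acadl KO / Acadvl wt, with log2 changes of -0.05 (SE 0.19) over wild type and 0.07 (SE 0.13) over Acadl Het.

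The muscle ubiquitin ligases were both called. Trim63, which acts on proteins of the sarcomere, was at 351, 225, 260 and 274 CPM in wild type, at 619, 623, 504 and 430 CPM in labelled Acadl KO / Acadvl wt and at 544, 667, 588, 490 and 538 CPM in labelled Acadl KO / Acadvl Het. Every labelled Acadl KO library was above every wild type library, and among the Acadl Het libraries with Acadvl wt or Acadvl Het only Acadl Het / Acadvl wt replicate 4, at 540 CPM, reached their range. Trim63 rose over wild type by 0.93 in log2 (SE 0.28, with an edgeR adjusted p = 0.0148) and over Acadl Het by 0.83 (SE 0.21, edgeR adjusted p = 0.00225). The call over wild type was lost without wild type replicate 2, the lowest (log2 change 0.81, edgeR adjusted p = 0.0534). Both calls of Trim63 were lost without the 6 libraries with Alb above 10 CPM, where labelled Acadl KO / Acadvl wt replicates 1 and 4 remained. The log2 changes were then 0.90 over wild type (edgeR adjusted p = 0.0859) and 0.54 over Acadl Het in Acadvl wt alone (edgeR adjusted p = 0.314).

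Fbxo32, the substrate-binding part of an SCF ubiquitin ligase, was at 393, 338, 310 and 307 CPM in wild type and at 616, 518, 638 and 398 CPM in labelled Acadl KO / Acadvl wt. The lowest labelled Acadl KO library was just above the highest wild type library. In labelled Acadl KO / Acadvl Het it was at 510, 777, 525, 513 and 426 CPM, again above wild type in 5 of 5 libraries. Fbxo32 rose over wild type by 0.62 in log2 (SE 0.23, with an edgeR adjusted p = 0.0398) and over Acadl Het by 0.53 (SE 0.17, edgeR adjusted p = 0.0104). The call over wild type was near the threshold, and it was lost when any 1 of 6 of the 8 libraries was left out: each of the 4 wild type libraries in turn, and labelled Acadl KO / Acadvl wt replicates 1 and 3, with log2 changes of 0.56 to 0.67 and edgeR adjusted p = 0.0539 to 0.0896. Without the 6 libraries with Alb above 10 CPM neither call held, and the log2 changes were 0.57 over wild type (edgeR adjusted p = 0.146) and 0.25 over Acadl Het in Acadvl wt alone (edgeR adjusted p = 0.552).

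Skeletal muscle also expresses both ligases. The summed level of 11 skeletal muscle markers was 226 to 619 CPM in wild type, 253 to 536 CPM in labelled Acadl KO / Acadvl wt, 434 to 1394 CPM in labelled Acadl KO / Acadvl Het and 766 to 974 CPM in Acadl Het / Acadvl KO, against 138 to 555 CPM in Acadl Het / Acadvl wt and 213 to 416 CPM in Acadl Het / Acadvl Het. This sum was made up largely of skeletal actin Acta1, at 114 to 1354 CPM, which heart muscle expresses too. The fast skeletal myosin genes Myh4, Myh1 and Myh2 were at no more than 0.441, 0.277 and 0.304 CPM in any library. Other markers of the list were higher, with Mybpc2 at 12.9 to 39.4 CPM, Atp2a1 at 0.989 to 2.17 CPM and Tnni2 at 0.231 to 2.03 CPM. Mylpf, Tnnt3, Tnnc2 and Ckmt1 were at no more than 0.722, 0.765, 0.281 and 0.554 CPM. The part of skeletal muscle RNA in the ligase levels was not tested. The summed level of 10 endothelial markers was 1991 to 2218 CPM in wild type, 2333 to 3427 CPM in labelled Acadl KO / Acadvl wt and 2508 to 4049 CPM in labelled Acadl KO / Acadvl Het. Within this sum Fabp4 alone was at 636 to 2350 CPM over the libraries. Of the 10 markers, 2 rose and 0 fell over wild type (median log2 change 0.08), beside 19.6% and 17.6% of all genes. Over Acadl Het 4 rose and 2 fell, beside 26.7% and 27.9% of all genes. The part of endothelial cells in the results was not tested. In whole tissue, a change in the share of a cell type and a change of RNA per cell cannot be told apart.

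Cdkn1a, an inhibitor of cyclin-dependent kinases, separated the genotypes most fully. It was at 151, 109, 199 and 95.7 CPM in wild type, at 80.7, 189, 101 and 187 CPM in Acadl Het / Acadvl wt, and at 167, 124 and 202 CPM in Acadl Het / Acadvl Het. In labelled Acadl KO / Acadvl wt it was at 560, 522, 334 and 226 CPM and in labelled Acadl KO / Acadvl Het at 525, 545, 546, 366 and 631 CPM. Every labelled Acadl KO library was above all 11 libraries of the first 3 genotypes. Cdkn1a rose over wild type by 1.51 in log2 (SE 0.34, with an edgeR adjusted p = 0.00199) and over Acadl Het by 1.58 (SE 0.25, edgeR adjusted p = 2.92e-05). Both calls held without the 6 libraries with Alb above 10 CPM, at a log2 change of 1.44 over wild type (edgeR adjusted p = 0.0189) and of 1.44 over Acadl Het in Acadvl wt alone (edgeR adjusted p = 0.0207). Within batch 1 the log2 change over wild type was 0.62 and within batch 2 it was 1.87.

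Klf15, which binds promoters of amino acid and lipid genes, was at 85.2 to 129 CPM in wild type, 112 to 152 CPM in labelled Acadl KO / Acadvl wt and 119 to 150 CPM in labelled Acadl KO / Acadvl Het. These ranges overlapped. Its log2 change was 0.27 over wild type (SE 0.25, edgeR adjusted p = 0.418) and 0.36 over Acadl Het (SE 0.18, edgeR adjusted p = 0.0923). The latter was called without Acadl Het / Acadvl wt replicate 4, at a log2 change of 0.47 (edgeR adjusted p = 0.0268), and in a fit of only the genotypes compared, at 0.37 (edgeR adjusted p = 0.0129).

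Over all 9 genes, the libraries of labelled Acadl KO / Acadvl wt and wild type did not overlap for 5 (Insr, Foxo1, Fbxo32, Trim63 and Cdkn1a), all 5 higher, where 18.1% of all genes tested were wholly higher and 17.7% wholly lower. Against Acadl Het, 5 of the 9 were called (Irs2, Foxo1, Fbxo32, Trim63 and Cdkn1a), all higher, in a comparison where 54.7% of all genes were called, 26.7% higher and 27.9% lower. Their median log2 change was 0.36, against -0.0249 over all genes. Only Cdkn1a did not overlap between these sides, where 10.4% of all genes were wholly higher and 7.92% wholly lower. Without the 6 libraries with Alb above 10 CPM, 2 of the 9 were called over wild type, where 24.4% of all genes were, and 1 over Acadl Het, where 22.6% were. On the labelled Acadl KO side, both comparisons then rested on Acadl KO / Acadvl wt replicates 1 and 4. Leaving out the Rn45s-rich Acadl Het / Acadvl Het replicate 1, 5 of the 9 were called over Acadl Het beside 50.0% of all genes, and they were Irs2 (log2 change 1.78), Foxo1 (0.32), Fbxo32 (0.56), Trim63 (0.84) and Cdkn1a (1.58). The fold changes are plotted with their standard errors.

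**Figure D2:**
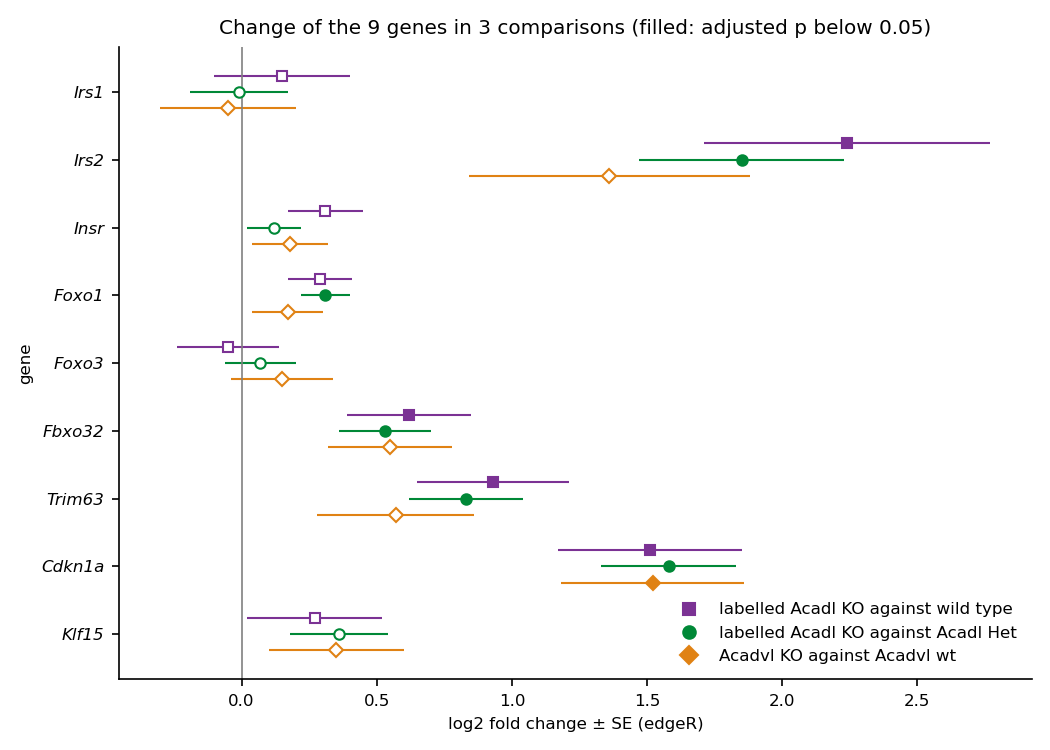
Fitted log2 change (x axis) with its standard error (bars) of the 9 genes (y axis) in labelled Acadl KO against wild type, labelled Acadl KO against Acadl Het and Acadvl KO against Acadvl wt, with filled symbols where the edgeR adjusted p was below 0.05. Irs2 and Cdkn1a have the largest changes in all 3 comparisons, and Cdkn1a is the only gene filled in all 3 (1.51, 1.58 and 1.52).

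The second question was whether Acadvl KO hearts differed from Acadvl wt hearts, both Acadl Het. Here 1 of the 9 genes rose, Cdkn1a, and 0 fell, in a comparison where 24.4% of all genes were called, 12.9% higher and 11.5% lower. The median log2 change of the 9 was 0.35. Cdkn1a was at 584, 490, 328 and 258 CPM in Acadvl KO and at no more than 189 CPM in its controls, and its log2 change was 1.52 (SE 0.34, edgeR adjusted p = 0.00301). It was the only one of the 9 whose libraries did not overlap, where 11.7% of all genes were wholly higher. Without the 6 libraries with Alb above 10 CPM its log2 change was 1.42 (edgeR adjusted p = 0.0172).

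The other 8 genes were split within the Acadvl KO group itself. Irs2 was at 169, 205, 35.3 and 42.0 CPM, so replicates 1 and 2 stood at the level of labelled Acadl KO hearts, and replicates 3 and 4 within the range of Acadl Het / Acadvl wt. Trim63 was at 912, 657, 332 and 292 CPM, Fbxo32 at 720, 920, 528 and 436 CPM, and Klf15 at 218, 184, 80.8 and 87.7 CPM. Foxo1 was at 56.1, 52.7, 35.7 and 38.5 CPM, Foxo3 at 86.8, 63.9, 44.2 and 43.3 CPM, Insr at 521, 501, 377 and 364 CPM and Irs1 at 97.2, 93.0, 55.9 and 64.9 CPM. Replicates 1 and 2 held the highest pair of values for all 9 genes. Replicates 1, 2 and 3 were in RNA isolation batch 2 and replicate 4 was in batch 1. Replicate 2 was also the Alb-rich library of the group, with Alb at 36.8 CPM, beside 5.41, 4.13 and 0.304 CPM in replicates 1, 3 and 4. The part of batch or of Alb-rich tissue in this split was not tested.

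The fitted log2 changes in Acadvl KO were 1.36 for Irs2 (SE 0.52, edgeR adjusted p = 0.0633), 0.57 for Trim63 (SE 0.29, edgeR adjusted p = 0.165) and 0.55 for Fbxo32 (SE 0.23, edgeR adjusted p = 0.0916). The control library Acadl Het / Acadvl wt replicate 4 bears on this, since it was the highest of its genotype for 7 of the 9 genes, with Fbxo32 at 651 CPM beside 313 to 352 CPM and Trim63 at 540 CPM beside 249 to 319 CPM in the others. Without it, Fbxo32 was called at 0.91 (edgeR adjusted p = 0.00054), Trim63 at 0.87 (edgeR adjusted p = 0.0206), Irs2 at 1.59 (edgeR adjusted p = 0.0429) and Foxo1 at 0.33 (edgeR adjusted p = 0.0253). Without Acadl Het / Acadvl KO replicate 4, Irs2 was called at 1.66 (edgeR adjusted p = 0.0344), Fbxo32 at 0.71 (edgeR adjusted p = 0.0411) and Trim63 at 0.85 (edgeR adjusted p = 0.0334), and without replicate 3 Irs2 alone was added, at 1.65 (edgeR adjusted p = 0.0177). Other single libraries lowered the changes. Without Acadl Het / Acadvl KO replicate 1, Trim63 was at 0.25 (edgeR adjusted p = 0.53) and Foxo1 at 0.08 (edgeR adjusted p = 0.669), and without replicate 2, Irs2 was at 0.98 (edgeR adjusted p = 0.195) and Fbxo32 at 0.37 (edgeR adjusted p = 0.278). Without Acadl Het / Acadvl wt replicate 1, Trim63 was at 0.38 (edgeR adjusted p = 0.399). The 6 libraries with Alb above 10 CPM include Acadl Het / Acadvl KO replicate 2. Without them Irs2 was at 0.95 (edgeR adjusted p = 0.243) and Trim63 at 0.48 (edgeR adjusted p = 0.355). Fbxo32 was then at 0.38 (edgeR adjusted p = 0.317) and Foxo1 at 0.11 (edgeR adjusted p = 0.634). Within batch 1, with 1 Acadvl KO library, the log2 changes were 0.14 for Irs2, -0.54 for Trim63 and -0.13 for Fbxo32, and within batch 2 they were 2.02, 1.21 and 1.06. The within-batch values of the 5 genes called in any comparison are plotted side by side.

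**Figure D3:**
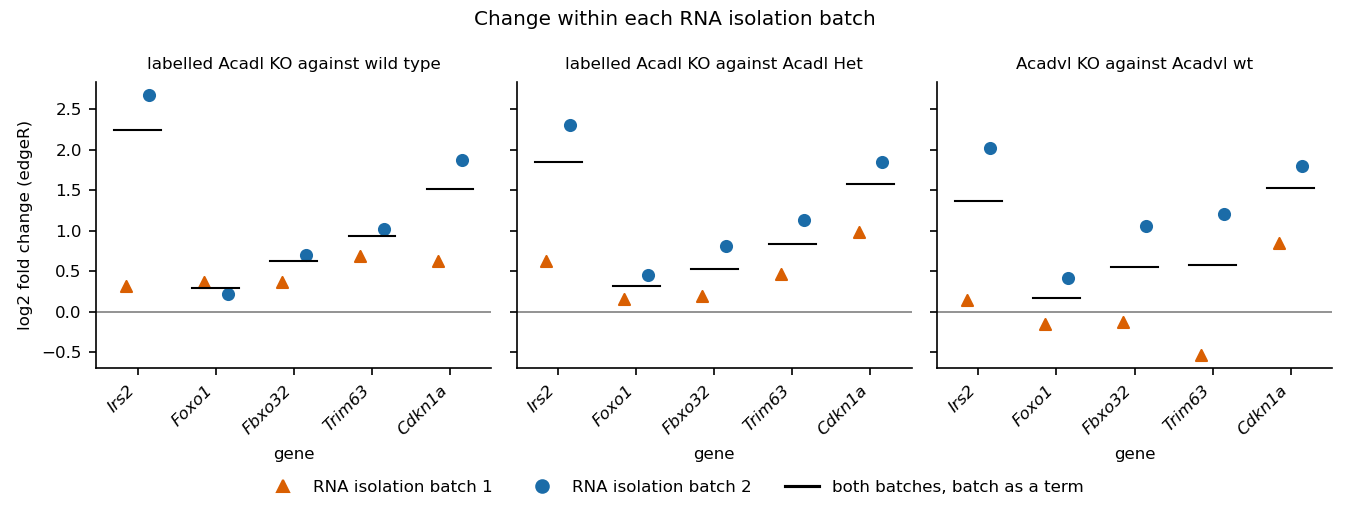
Fitted log2 change (y axis) of Irs2, Foxo1, Fbxo32, Trim63 and Cdkn1a (x axis) within RNA isolation batch 1 (triangles), within batch 2 (circles) and over both batches with batch as a term (lines), in 3 comparisons. Irs2 and Cdkn1a have the smaller change in batch 1 in all 3 panels, and for Acadvl KO the batch 1 values of Foxo1, Fbxo32 and Trim63 are below 0.

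Labelled Acadl KO with Acadvl wt was also set directly against Acadvl KO with Acadl Het. None of the 9 genes was called at an adjusted p under 0.05 by edgeR, DESeq2 or limma voom, where 4.43% of all genes were called by edgeR (1.77% higher and 2.66% lower), and the log2 changes ran from -0.26 to 0.04. For Irs2 the difference was 0.04 (SE 0.49), for Cdkn1a -0.02 (SE 0.32) and for Trim63 0.00 (SE 0.28), so the standard errors leave room for differences in either direction. Acadl Het against wild type also called 0 of the 9, among 0 genes called in all (0%) and 541 at an unadjusted p under 0.05. There the log2 change was 0.84 for Irs2 (SE 0.5) and 0.01 for Cdkn1a (SE 0.33). Acadvl Het against Acadvl wt called 0 of the 9, with 0.0127% of all genes called (0.00633% higher and 0.00633% lower), and its log2 changes were -0.62 for Irs2 (SE 0.36) and 0.3 for Cdkn1a (SE 0.23). The interaction of labelled Acadl KO with Acadvl Het called 0 of the 9 and 0% of all genes (817 at an unadjusted p under 0.05), with 0.9 for Irs2 (SE 0.74) and 0.16 for Cdkn1a (SE 0.47). In each of these 4 comparisons 0 of the 9 had an unadjusted edgeR p under 0.05. Of all 15804 genes, 3460 did for labelled Acadl KO against Acadvl KO and 697 for Acadvl Het against Acadvl wt. DESeq2 and limma voom also called 0 of the 9. In the order given, DESeq2 called 7.75%, 0.00633%, 0.0569% and 0.633% of all genes, and limma voom 3.73%, 0%, 0.0127% and 0%.

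The pair correlations below include the split Acadl Het / Acadvl KO libraries and the single high control library. No correlation was computed with all of these left out, so their part in the values of r was not tested. After genotype and batch means were removed from log2 CPM, Pearson's r was above 0 for all 36 pairs of the 9 genes over 24 libraries, and 34 pairs passed at an adjusted p of 0.05 (permutation test with 100000 draws, two-sided, adjusted over the 36 pairs). The draws shuffled the residuals as 24 free values, though the fit left 17 residual degrees of freedom, so these p-values are too small. Pairs near the threshold, such as Irs2 with Insr (r = 0.41, permutation test, adjusted p = 0.0485), may therefore not hold. The median r was 0.65, against 0.00 over all 124875306 pairs of tested genes, of which 10.5% had an r of at least 0.41, the lowest r among the 34 pairs. Trim63 and Klf15 had the highest r, 0.87 (Spearman's rho 0.67, permutation p = 1e-05, the smallest that 100000 draws can give, adjusted p = 9e-05). It was 0.79 without the 2 libraries farthest from the median of Trim63 and 0.92 within batch 2 (n = 15). In batch 1, 3 of the 6 genotypes had 1 library, so no value was computed there.

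Foxo1 went with both ligases, at an r of 0.82 with Trim63 and 0.81 with Fbxo32, and the 2 ligases went with each other at 0.76. Irs1 and Irs2, of which only Irs2 was called in a comparison of genotypes, were high in the same libraries within genotypes, at an r of 0.77 (rho 0.74, permutation p = 1e-05, adjusted p = 9e-05). The 2 pairs that did not pass were Insr with Cdkn1a, at 0.36 (permutation test, adjusted p = 0.0886), and Foxo3 with Cdkn1a, at 0.27 (permutation test, adjusted p = 0.2). Of the 36 pairs, 29 passed without the 2 libraries farthest from the median of 1 gene of the pair, and 30 within batch 2 alone. These counts come from the same kind of test and have the same limit, more so in batch 2, which has fewer libraries. The genes of a pair share their libraries and the TMM scaling, and r of each pair is shown as a grid.

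**Figure D4:**
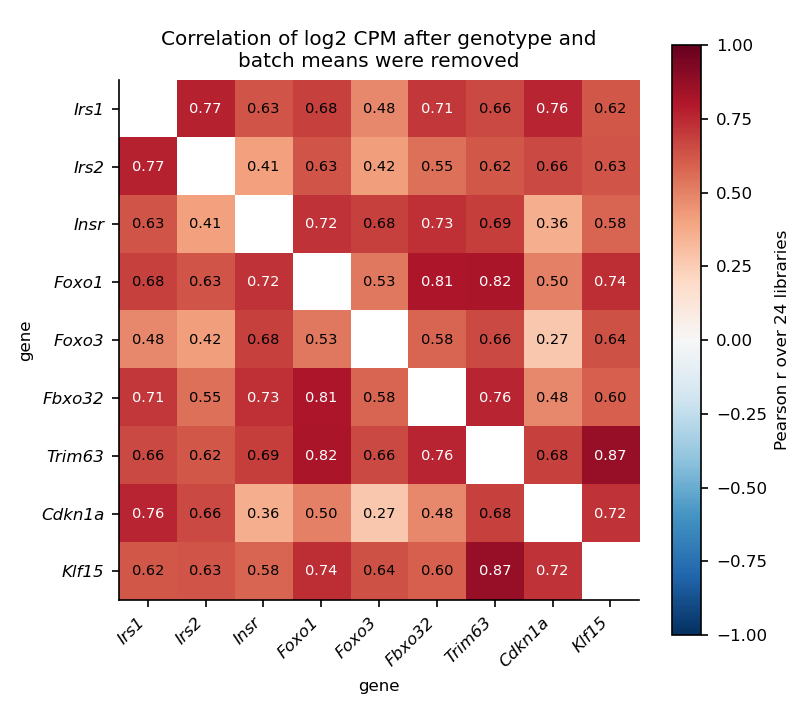
Pearson's r (colour scale from -1 to 1, value in each cell) of log2 CPM between each pair of the 9 genes (both axes) over 24 libraries, after genotype and RNA isolation batch means were removed. All 36 values are above 0, from 0.27 for Foxo3 with Cdkn1a to 0.87 for Trim63 with Klf15.

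For each gene, the genes most like it over the 24 libraries, with batch removed and genotype kept, were found by Pearson's r of log2 CPM, given as a description. Irs2 was most like Csrnp1 (r = 0.947), Mafk (r = 0.934) and Parp6 (r = 0.928). Cdkn1a was most like Fam195b (r = 0.972), Actn2 (r = 0.954) and Ninj1 (r = 0.953). Trim63 was most like Ranbp9 (r = 0.965), Gabarapl1 (r = 0.963) and Tbc1d15 (r = 0.958), and Gabarapl1 is an autophagy gene known as a FOXO target. Fbxo32 and Foxo1 had the same leading gene, Pnrc1 (r = 0.923 and 0.92), and both had Fbxo30, a muscle ubiquitin ligase gene, among their first 3 (r = 0.914 and 0.915). Klf15 was most like Atg13 (r = 0.897). The likeness was lower for Irs1 (Limd1, r = 0.82), Insr (Bod1l, r = 0.852) and Foxo3 (Frat2, r = 0.837).

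The rest of the pathway was described by lists that leave out the 9 genes, beginning above the FOXO step. For this list and those below, the shares of all genes over wild type were 19.6% higher and 17.6% lower. Of 14 tested insulin and IGF-1 receptor and adaptor genes, 1 rose and 1 fell in labelled Acadl KO against wild type, with a median log2 change of -0.08. The adaptor gene Grb2 fell by 0.46 (SE 0.1, edgeR adjusted p = 0.00111). Of 22 PI3-kinase, AKT and substrate genes, 8 rose and 0 fell, with a median of 0.05. The kinase gene Mtor rose from 108 ± 6.16 to 282 ± 49.0 CPM (SD, n = 4 each, log2 change 1.36) and Akt1 from 153 ± 4.66 to 262 ± 22.9 CPM (log2 change 0.78). Eif4ebp1, a translation repressor under mTOR, rose by 0.68. Against Acadl Het, 11 of the 22 rose and 3 fell, where 26.7% of all genes were called higher and 27.9% lower.

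Among 18 genes that damp the insulin signal, 2 rose and 3 fell over wild type, with a median log2 change of -0.03. Trib3, a pseudokinase that binds AKT and is also a target of the integrated stress response, rose by 3.46 (SE 0.55, edgeR adjusted p = 9.92e-05), and the receptor phosphatase gene Ptprf rose by 0.79 (SE 0.18, edgeR adjusted p = 0.00169). Socs3 was at a log2 change of -0.47 over wild type and fell by 2.08 against Acadl Het (SE 0.31, edgeR adjusted p = 1.81e-05). Its level in those controls bears on this fall. In Acadl Het against wild type, the log2 change of Socs3 was 1.62, which was not called (SE 0.42, edgeR adjusted p = 0.719). In Acadvl KO against Acadl Het / Acadvl wt it was -1.83 (SE 0.44, edgeR adjusted p = 0.0047).

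FOXO targets other than the 9 genes went both ways. Of 24, 5 rose and 6 fell over wild type (median log2 change 0.05), shares close to the 19.6% and 17.6% of all genes. Gabarapl1 rose by 1.05 (SE 0.25, edgeR adjusted p = 0.00263), the pyruvate dehydrogenase kinase gene Pdk4 by 0.95 (SE 0.17, edgeR adjusted p = 0.000282) and the triglyceride lipase gene Pnpla2 by 0.59 (SE 0.15, edgeR adjusted p = 0.00416), while Tnfsf10, the death ligand TRAIL, fell by 1.63 (SE 0.4, edgeR adjusted p = 0.00342). In Acadvl KO hearts 2 of the 24 rose and 2 fell, where 12.9% of all genes were called higher and 11.5% lower.

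Among 24 other muscle ubiquitin ligase, proteasome and atrophy genes, 11 rose and 4 fell over wild type, and the median log2 change was 0.17. Trim54, a close relative of Trim63 at the sarcomere, rose by 0.81 (SE 0.11, edgeR adjusted p = 1.47e-05), the proteasome subunit gene Psmd11 by 0.84 (SE 0.16, edgeR adjusted p = 0.000367) and Fbxo30 by 0.76 (SE 0.18, edgeR adjusted p = 0.00221). Mstn, the growth inhibitor myostatin, fell but was at 0.622 ± 0.0818 CPM in wild type and 0.0578 ± 0.0661 CPM in labelled Acadl KO / Acadvl wt (SD, n = 4 each), near the lower limit of detection. In Acadvl KO, 5 of the 24 rose and 4 fell, beside 12.9% and 11.5% of all genes.

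Beside Cdkn1a, 22 p53 targets and CDK inhibitor genes were tested, and 5 rose and 4 fell over wild type, with a median log2 change of -0.09. The p53 target Trp53inp1 rose by 1.43 (SE 0.47, edgeR adjusted p = 0.0218) and the CDK inhibitor gene Cdkn1c by 0.94 (SE 0.2, edgeR adjusted p = 0.00107), and Eda2r, another p53 target, fell by 1.13 (SE 0.26, edgeR adjusted p = 0.00192). Of 26 glucocorticoid target and KLF genes, 6 rose and 1 fell, with a median of 0.32. Glul, glutamine synthetase, rose by 1.00 (SE 0.18, edgeR adjusted p = 0.000262), the kinase gene Sgk1 by 1.09 (SE 0.27, edgeR adjusted p = 0.00396) and the metallothionein gene Mt1 by 1.38 (SE 0.39, edgeR adjusted p = 0.00975), while Fkbp5 was at 0.93 (SE 0.42, edgeR adjusted p = 0.0864).

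Several of the 9 genes also follow the last meal or the hour of the day, and the labels give neither. Of 20 clock and feeding genes, 5 rose and 4 fell over wild type, with the clock-controlled factors Hlf at a log2 change of -1.49 (SE 0.25, with an edgeR adjusted p = 0.000131), Dbp at -1.31 (SE 0.43, edgeR adjusted p = 0.0214) and Per3 at -1.26 (SE 0.35, edgeR adjusted p = 0.00863), and Ciart at 0.88 (SE 0.29, edgeR adjusted p = 0.0211). The part of feeding or hour in the values of the 9 genes was not tested. Of 20 integrated stress response genes, 18 rose and 0 fell over wild type, and 19 rose and 0 fell in Acadvl KO, with a median log2 change of 1.78 and 2.27. The shares of all genes in Acadvl KO were 12.9% higher and 11.5% lower. The shares of each list are plotted beside those of all genes.

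**Figure D5:**
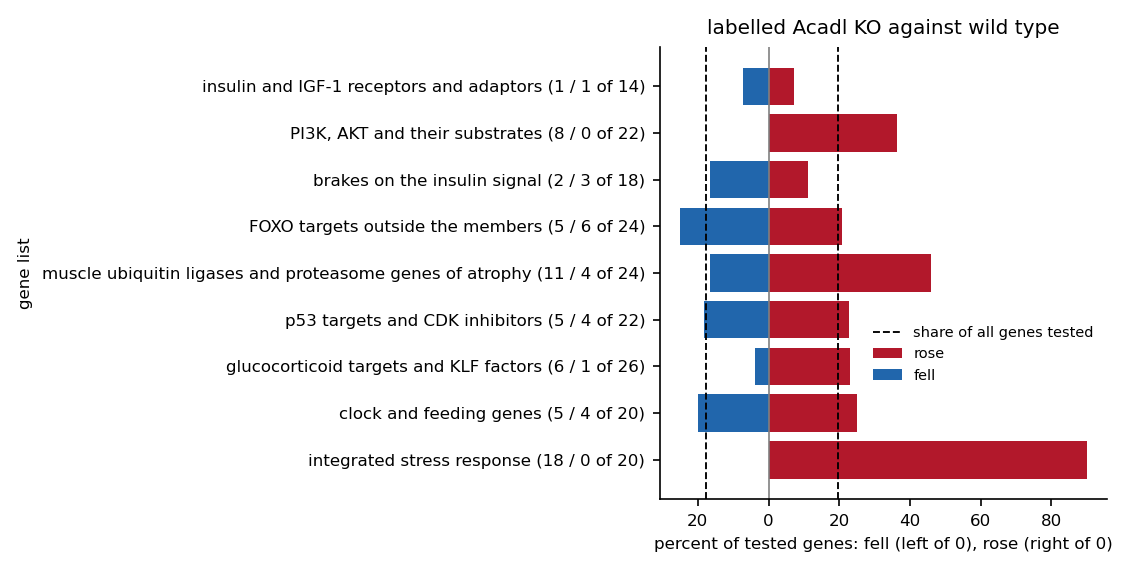
Percent of the tested genes of 9 lists (y axis, with the number that rose and fell of those tested) that rose (right of 0) or fell (left of 0) in labelled Acadl KO against wild type (x axis, linear), with dashed lines at the shares of all genes tested, 19.6% and 17.6%. The integrated stress response list has the largest share that rose, 18 of 20, followed by the ligase and proteasome list, 11 of 24, and FOXO targets lie near both dashed lines.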

How the data were processed

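RNA of 24 heart samples was sequenced, and the authors deposited raw read counts per gene, 1 file per library. Per the file headers, featureCounts 1.5.2 counted primary alignments over exons of UCSC mm10 genes without regard to strand, with a read over several genes counted for each, while the notes of the submitters give featureCounts as 1.5.3 and the aligner as STAR 2.5.1b. The 9 genes, the gene lists and the tests were chosen with earlier results of these data known. These counts were tested with edgeR 4.0.16 under R 4.3.3 (filterByExpr, TMM), with Benjamini-Hochberg adjustment over 15804 genes. There was 1 quasi-likelihood fit of all 24 libraries with genotype and RNA isolation batch, with 17 residual degrees of freedom. The fit was also run on simulated counts that had no batch effect and no pattern shared between genes. That run does not test how the fit behaves with these features. Levels are CPM with TMM factors, and RPKM adds the deposited exon length. Totals of 34320838 to 51743114 counts per library set the counting precision, and no molecular identifiers were used in counting. Pair correlations used log2 CPM with a prior count of 2. Marker genes are named too, with Alb, Fabp4 and the skeletal muscle markers singled out after their values were seen. Beside these and the 9 genes, the text names up to 4 called genes of each list with the largest change. It also takes the 3 genes most like each of the 9. One gene that this rule takes is not reported here. Alternatives were RLE size factors, DESeq2 1.42.0, limma voom 3.58.1, no low-count filter, no batch term, each batch alone, only the genotypes compared, no Alb-rich libraries, each library left out and, chosen after the data were seen, limma voom with the number that opens each sample title as a block.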

Additional observations from a re-analysis of the deposited data

Results flagged for a closer look

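Levels of the 9 genes were examined in 45 sets of libraries (each gene in each genotype with 4 or 5 libraries) for a library that stands apart by Dixon's 95% criterion, which chance alone meets in about 1 of 20 sets. In 4 of the 45 a library stood apart. Insr was at 253 CPM in labelled Acadl KO / Acadvl Het replicate 5, below the other 4 libraries at 385 to 432 CPM. Foxo1 was at 50.0 CPM in Acadl Het / Acadvl wt replicate 4, above the others at 36.0 to 36.4 CPM, and Fbxo32 was at 651 CPM in the same library, above the others at 313 to 352 CPM. Fbxo32 was at 777 CPM in labelled Acadl KO / Acadvl Het replicate 2, above the others at 426 to 525 CPM.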

How the results depend on the processing

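Counts of called genes among the 9 were 4 over wild type, 5 over Acadl Het and 1 for Acadvl KO. Within batch 1 all 3 counts were 0, where 0.534%, 13.1% and 1.29% of all genes were called. Within batch 2 they were 4, 6 (Insr gained, log2 change 0.31) and 5, beside 28.6%, 45% and 16.7% of all genes. Without the 6 libraries with Alb above 10 CPM they were 2 over wild type (24.4% of all genes), 1 over Acadl Het (22.6%, Acadvl wt alone, since Acadl Het / Acadvl Het was lost) and 1 for Acadvl KO (17.4%). With only the genotypes compared they were 6 over wild type (37.7%, Insr gained at 0.33 and Foxo1 at 0.28), 6 over Acadl Het (53.5%, Klf15 gained at 0.37) and 1 for Acadvl KO (13.2%). For Acadvl KO the count was 3 with DESeq2 (26.7% of all genes), 2 with limma voom (24.3%) and 3 without a batch term (25.6%). With each library left out in turn, the counts ran from 2 to 4 over wild type (29.4% to 36.9% of all genes), 5 to 6 over Acadl Het (49.0% to 54.8%) and 1 to 5 for Acadvl KO (17.6% to 25.0%), and were 0 throughout in the other 4 comparisons. The cause of these shifts was not tested, and several of these fits also held fewer samples.

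Changes of sign fell on values near 0 or on single batches. Over wild type, Foxo3 was at 0.00 without a batch term, 0.20 in batch 2 and 0.05 with only the genotypes compared, and Irs1 at -0.56 in batch 1. Over Acadl Het, Irs1 was at 0.01 with limma voom, 0.00 without a batch term and 0.34 in batch 2, Insr at -0.11 and Foxo3 at 0.00 in batch 1, and Foxo3 at -0.06 without the Alb-rich libraries. For Acadl Het against wild type, Cdkn1a was at -0.03 with limma voom and in batch 1. For Acadvl Het, Irs2 was at 0.38 in batch 1. For Acadvl KO in batch 1, Insr was at -0.21, Foxo1 -0.15, Foxo3 -0.27, Fbxo32 -0.13, Trim63 -0.54 and Klf15 -0.42, and Irs1 was at 0.23 in batch 2.

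For labelled Acadl KO against Acadvl KO, limma voom gave Trim63 0.13 and Klf15 0.00, no low-count filter gave Trim63 0.00, and batch 1 gave Irs2 -0.88, Foxo3 0.05, Trim63 0.55 and Klf15 0.51. Batch 2 gave Insr -0.05, Foxo1 -0.03 and Cdkn1a 0.02. Only the genotypes compared gave Irs2 -0.11, Foxo1 0.00 and Trim63 0.03, and leaving out the Alb-rich libraries gave Trim63 0.06, Cdkn1a 0.02 and Klf15 0.12.

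With 1 library left out, signs also changed for Foxo3 over wild type (-0.17 to 0.05), Irs1 over Acadl Het (-0.13 to 0.11), Cdkn1a in Acadl Het against wild type (-0.22 to 0.31), Irs1 (-0.21 to 0.20) and Foxo3 (-0.05 to 0.29) in Acadvl KO, and Cdkn1a in the interaction (-0.06 to 0.50). For labelled Acadl KO against Acadvl KO the ranges were -0.28 to 0.02 for Irs1, -0.28 to 0.45 for Irs2, -0.07 to 0.09 for Insr, -0.11 to 0.10 for Foxo1, -0.23 to 0.33 for Trim63, -0.21 to 0.17 for Cdkn1a and -0.32 to 0.14 for Klf15. Cdkn1a kept its call in all 3 comparisons in each of these fits, and Irs2 over wild type and over Acadl Het. The number that opens each title was never the same in a labelled Acadl KO / Acadvl wt and a wild type library, so no paired analysis was possible there. As an alternative chosen after the data were seen, limma voom took that number as a replicate block (correlation 0.027). The block fit called 4, 5 and 2 of the 9 beside 36.8%, 54.5% and 24.3% of all genes, the same counts of the 9 as limma voom without the block, and it gave Irs1 0.01 over Acadl Het, Cdkn1a -0.03 in Acadl Het against wild type, and Trim63 0.13 and Klf15 0.00 for labelled Acadl KO against Acadvl KO. Depth limited none of the 9 genes, with at least 720 counts in every library, and the number of libraries limits the precision.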
